A study of Homo sapiens with 12 samples.

Results

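The miRNAs described are hsa-miR-451a, which is known to be matured without DICER, and both arms of its genomic neighbour miR-144, hsa-miR-144-5p and hsa-miR-144-3p, which come from an ordinary DICER-cut hairpin. They were chosen by name, with earlier results of these data known, as 3 of the 1971 miRNA names listed for either of the cell lines. All 3 were listed in each of the 12 libraries. The libraries are small RNA libraries from human cells in which a form of DICER was put back ("rescue" in the labels), prepared with AQ-seq, a protocol built to lower the ligation bias of small RNA sequencing. Each of 6 groups has 2 libraries. In HCT116, a colon carcinoma line, the groups are rescue with DICER lacking its double-stranded RNA-binding domain (dsRBD deletion), rescue with a form called AA, and rescue with WT DICER. In HEK293T, an embryonic kidney line carrying the SV40 large T antigen, they are the same: dsRBD deletion, AA and WT. The labels do not say what AA changes, how much of each DICER form the cells made, whether the cells still had DICER of their own, or whether the libraries of a group came from separate cultures or clones, so the p-values below measure the spread between these libraries, which may be technical.

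Most miRNAs are cut out of a primary transcript by DROSHA as a hairpin, and DICER then removes the loop to leave a duplex of a 5p and a 3p strand. The precursor of miR-451a has a stem too short for DICER; it is loaded whole into AGO2, which slices its 3′ side, and the product is then trimmed. The cluster of miR-144 and miR-451a is transcribed as one primary RNA, is strongly expressed in red blood cell precursors under GATA1, and is known from mice to protect erythroid cells against oxidative stress; the miR-144 hairpin is also known to help DROSHA process its miR-451a neighbour.

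In the GRCh38 annotation of GENCODE, the hairpin of MIR451A lies at chr17:28861369-28861440 and that of MIR144 at chr17:28861533-28861618, both on the minus strand and 92 bases apart, with MIR144 upstream in the direction of transcription. Both lie in an exon of the long non-coding RNA gene AC024267.1, annotated on the same strand. MIR451B is annotated at chr17:28861371-28861438 on the opposite strand over MIR451A, and MIR4732 at chr17:28861655-28861730, 36 bases from MIR144. Their products miR-451b, miR-4732-5p and miR-4732-3p were not among the names listed in the tables used here, so the cluster is represented by the 3 names above.

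The RefSeq miRNA table (GRCh38.p14) held sequences for 2 of the 3 names, the miR-144 arms. They are shown to set the DICER-cut hairpin beside its products, together with miR-101-3p (chromosome 9), the only one of the table's 2370 mature names that shares bases 2 to 7 with a miR-144 arm. Capitals mark bases 2 to 8, the seed, in the mature RNAs and both mature arms in the hairpin.
miR-144-5p: gGAUAUCAucauauacuguaag
miR-144-3p: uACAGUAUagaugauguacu
miR-101-3p: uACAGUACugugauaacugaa
MIR144 hairpin: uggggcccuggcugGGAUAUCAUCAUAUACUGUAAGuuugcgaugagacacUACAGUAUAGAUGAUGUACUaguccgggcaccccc
The predicted fold of the 86-base hairpin has 34 base pairs. Its arms, of 22 and 20 bases, are joined by 18 predicted pairs and separated by 15 bases that hold the loop DICER has to remove. miR-144-3p and miR-101-3p share bases 2 to 7 but not base 8, and no mature name in the table shares bases 2 to 8 with either miR-144 arm.

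The libraries held 824987 to 4498886 miRNA reads, with the dsRBD deletion libraries the shallowest in each line. The 30 spike-in RNAs took between 0.272% and 1.55% of all counts in HCT116 libraries and between 1.20% and 3.54% in HEK293T libraries. Each spike-in read was matched by 63.7 and 64.7 miRNA reads in HCT116 dsRBD deletion libraries, 210 and 206 in AA libraries, and 274 and 367 in WT libraries. In HEK293T the numbers were 29.1 and 27.2 with the dsRBD deletion, 58.8 and 44.3 with AA, and 82.6 and 80.9 with WT. The dsRBD deletion libraries thus held the fewest miRNA reads per spike-in in both lines, and an miRNA's share of all miRNA reads and its amount relative to the spike-ins can move in different directions. Less RNA per cell and fewer cells holding it cannot be told apart in such bulk samples.

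miR-451a made up a larger part of the miRNA pool with the dsRBD deletion than with WT DICER in both lines, and its share did not differ detectably between AA and WT. In HCT116 it had 150 and 374 reads with the dsRBD deletion, 295 and 274 with AA, and 338 and 264 with WT. TMM factors scale libraries on the assumption that most miRNAs do not change between them. Scaled by library size with these factors, the reads of miR-451a are 155 and 217 CPM (reads scaled to libraries of one size) with the dsRBD deletion, 97.1 and 80.4 with AA, and 85.1 and 79.5 with WT. Both dsRBD deletion libraries lay above the other 4, while the AA and WT libraries overlapped; 40.3% of all tested names had dsRBD deletion libraries wholly above WT. The means were 186 ± 43.8 CPM with the dsRBD deletion, 88.7 ± 11.8 CPM with AA and 82.3 ± 3.95 CPM with WT (SD, n = 2 each). On this scale miR-451a was 2.28-fold higher with the dsRBD deletion than with WT, a log2 fold change of 1.19 ± 0.19 (SE; 95% interval 0.77 to 1.61; adjusted p = 3.0e-04, quasi-likelihood test of edgeR, Benjamini-Hochberg adjusted over all 795 tested names). A call was common in that comparison: at the same threshold 62.1% of all tested names changed and 28.1% rose, and miR-451a ranked 139th of 795 by fold change.

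In HEK293T miR-451a had 134 and 168 reads with the dsRBD deletion, 67 and 32 with AA, and 79 and 85 with WT. The TMM-scaled levels were 118 and 129 CPM with the dsRBD deletion, 24.8 and 22.9 CPM with AA, and 28.0 and 24.8 CPM with WT. The dsRBD deletion libraries again lay far above the rest, as they did above WT for 42.5% of all tested names, and the AA libraries lay below the WT libraries, with 24.82 CPM in the higher AA library and 24.84 in the lower WT library; 36.4% of all tested names had AA libraries wholly below WT. The rise over WT was 4.68-fold, a log2 fold change of 2.22 ± 0.23 (SE; 95% interval 1.71 to 2.74; adjusted p = 7.6e-06, edgeR), against a background in which 75.6% of the 626 tested names changed and 35.9% rose. miR-451a ranked 63rd of 626 there. By abundance it stood at places 210 and 201 among the 1611 listed names with the dsRBD deletion, 362 and 364 with AA, and 365 and 378 with WT. In HCT116 it stood at places 205 and 176 of 1854 with the dsRBD deletion, 264 and 285 with AA, and 276 and 275 with WT.

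AA against WT gave small differences for miR-451a in both lines. The log2 fold change was 0.11 ± 0.19 in HCT116 (SE; 95% interval -0.31 to 0.52; adjusted p = 0.819, edgeR), where 7.42% of all tested names were called. It was -0.13 ± 0.25 in HEK293T (SE; 95% interval -0.69 to 0.42; adjusted p = 0.766, edgeR), where 21.4% were called. These background shares depended on single libraries: the number of names called with AA was 59 in HCT116 but 10 without AA replicate 1 and 23 without AA replicate 2, and in HEK293T it was 134 but 54 without AA replicate 2 and 88 without WT replicate 1. The intervals run from -0.31 to 0.52 in HCT116 and from -0.69 to 0.42 in HEK293T on the log2 scale, so differences within them are not excluded. Set directly against the dsRBD deletion, AA had less miR-451a, with a log2 fold change of -1.08 ± 0.19 in HCT116 (SE; adjusted p = 7.0e-04, edgeR; 56.5% of names called, 26.9% lower). Scaled to the spike-ins this HCT116 change was 0.10 (adjusted p = 0.767, edgeR with spike-in scaling). In HEK293T the change was -2.36 ± 0.24 (SE; adjusted p = 8.8e-06, edgeR; 73.0% called, 36.9% lower).

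**Figure D1:**
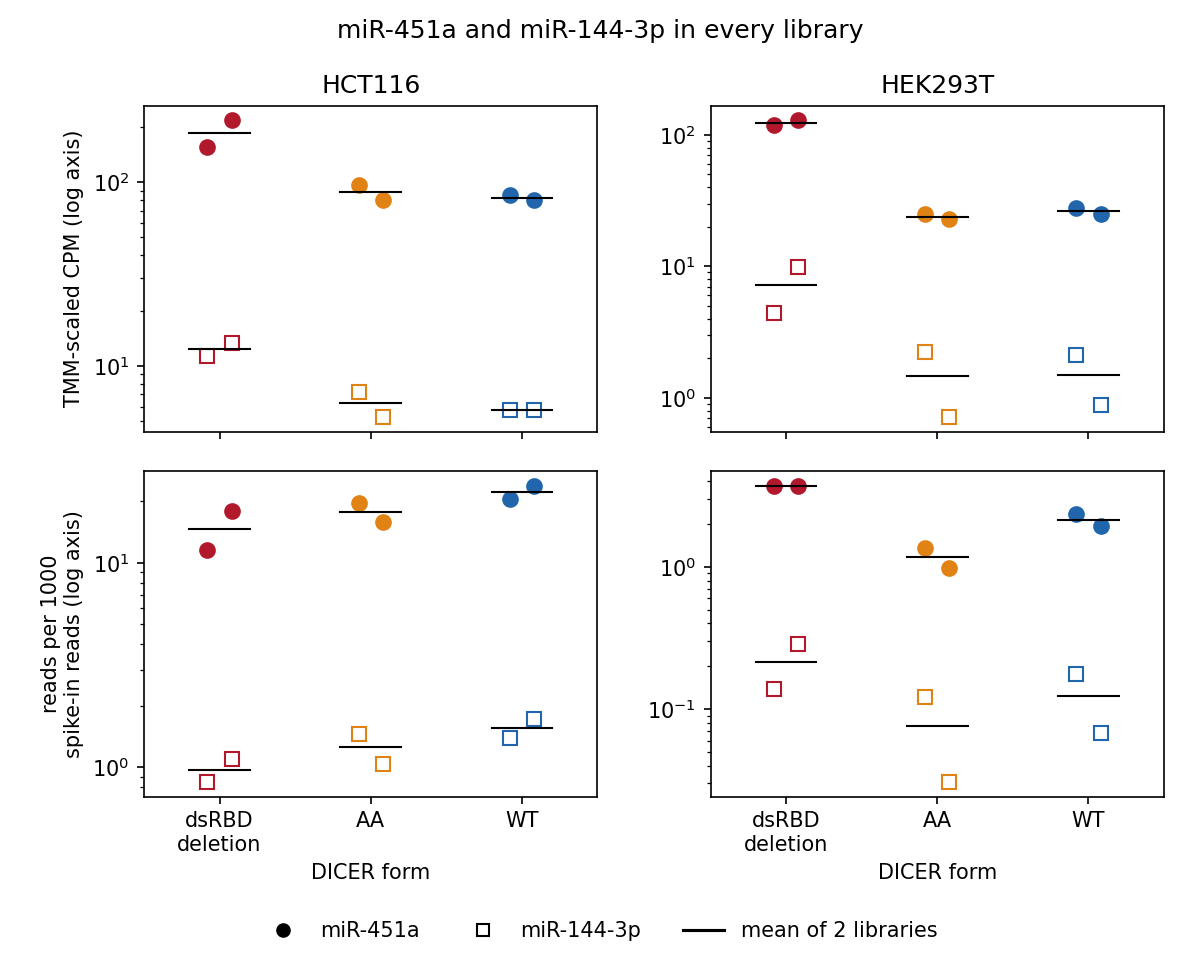
Levels of miR-451a (filled circles) and miR-144-3p (open squares) in each library of HCT116 (left) and HEK293T (right), as TMM-scaled CPM (top) and as reads per 1000 spike-in reads (bottom), both on log axes. Black lines are means of 2 libraries; in HCT116 the dsRBD deletion libraries are the highest on the upper scale, with miR-451a at 155 and 217 CPM, and include the lowest on the lower scale, with 11.6 reads per 1000 spike-in reads.

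miR-144-3p, the more abundant arm of the DICER-cut neighbour, was scarcer than miR-451a and, like it, was highest with the dsRBD deletion. In HCT116 it had 11 and 23 reads with the dsRBD deletion, 22 and 18 with AA, and 23 and 19 with WT. This is 11.4 and 13.3 TMM-scaled CPM with the dsRBD deletion, 7.24 and 5.28 with AA, and 5.79 and 5.72 with WT. The dsRBD deletion libraries were the highest, and for 40.3% of all tested names they were wholly above WT. The AA libraries lay on either side of the WT libraries. All 6 HCT116 libraries were above the 2.98 CPM that the low-count filter required, so it was not tested only for being high in 1 group. Its log2 fold change with the dsRBD deletion against WT was 1.12 ± 0.36 (SE; 95% interval 0.31 to 1.92; adjusted p = 0.0200, edgeR), where 28.1% of all tested names rose. With so few reads this call rested on the settings: leaving out 1 library at a time gave 0.88 to 1.07 with adjusted p between 0.0469 and 0.189, and the call held in 1 of those 6 fits, the one without AA replicate 2. It was also lost in DESeq2 (log2 fold change 1.06, adjusted p = 0.101) and without the low-count filter (0.90, adjusted p = 0.109).

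AA against WT gave 0.11 ± 0.35 for miR-144-3p in HCT116 (SE; 95% interval -0.66 to 0.88; adjusted p = 0.897, edgeR). Against the dsRBD deletion, 26.9% of all tested names were called lower with AA. AA against the dsRBD deletion gave -1.004 ± 0.36 (SE; adjusted p = 0.0370, edgeR), a call that none of the 6 fits with a library left out kept (adjusted p 0.0735 to 0.271); with spike-in scaling it was 0.17 (adjusted p = 0.781, edgeR).

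In HEK293T miR-144-3p had 5 and 13 reads with the dsRBD deletion, 6 and 1 with AA, and 6 and 3 with WT, and it missed the filter of 4.73 CPM in at least 2 libraries. The TMM-scaled levels were 4.41 and 9.95 CPM with the dsRBD deletion, 2.22 and 0.717 with AA, and 2.13 and 0.877 with WT. Both dsRBD deletion libraries were above the other 4, and for 42.5% of all tested names they were wholly above WT. AA and WT overlapped. No test of its level is given, since only a dsRBD deletion library passed the limit. miR-144-5p, the other strand of the same hairpin, was barely read at all. It had 4 and 0 reads with the dsRBD deletion, 3 and 2 with AA, and 5 and 3 with WT in HCT116, and 1 and 2, 0 and 0, and 1 and 2 reads in the same groups of HEK293T. The libraries at 0 allow up to 2.22 CPM in HCT116 dsRBD deletion replicate 2, and up to 1.04 and 2.08 CPM in HEK293T AA replicates 1 and 2, counting error only. Differences in miR-144-5p were not detectable at this depth.

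**Figure D2:**
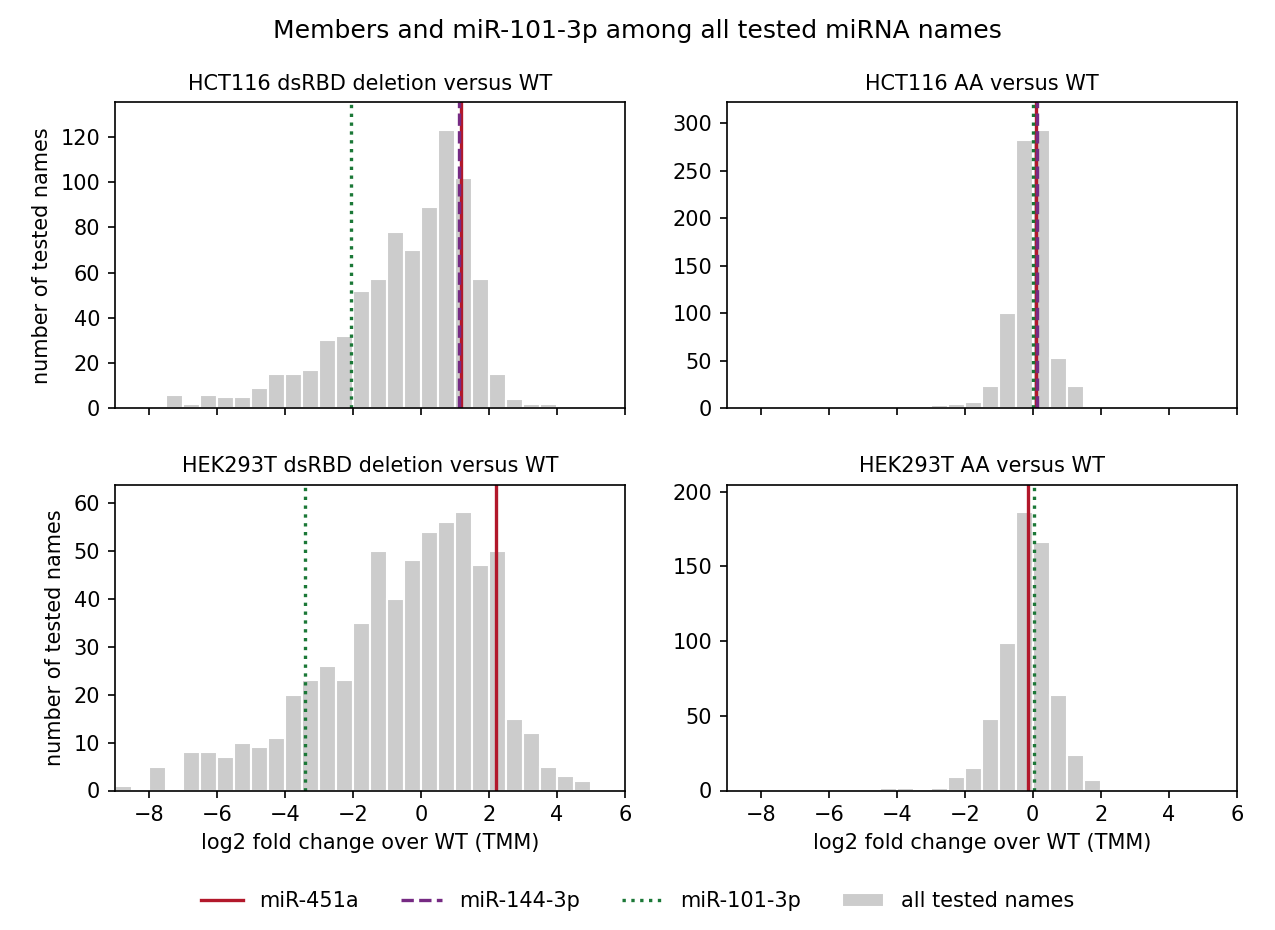
Numbers of tested miRNA names by log2 fold change over WT (TMM scaling, bins of 0.5) for the dsRBD deletion (left) and AA (right) in HCT116 (top) and HEK293T (bottom), with lines at miR-451a, miR-144-3p (HCT116 only) and miR-101-3p. With the dsRBD deletion miR-451a lies to the right in both lines, at 1.19 and 2.22, and miR-101-3p to the left, at -2.06 and -3.40; with AA all of the marked names lie near 0.

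The ratio of both members within a library needs no scaling between libraries, and it compares the DICER-independent with the DICER-cut product of one primary transcript. miR-144-3p made up 6.83% and 5.79% of the reads of miR-144-3p and miR-451a together in HCT116 dsRBD deletion libraries, 6.94% and 6.16% in AA libraries, and 6.37% and 6.71% in WT libraries. All 6 values lay within 5.79% to 6.94%, and the groups overlapped. Pooled by group the shares were 6.09% with the dsRBD deletion (34 of 558 reads, exact 95% interval 4.26% to 8.41%), 6.57% with AA (40 of 609, 4.73% to 8.84%) and 6.52% with WT (42 of 644, 4.74% to 8.71%). In HEK293T the single libraries ranged more widely, from 3.03% to 8.22%, on at most 13 miR-144-3p reads each. The pooled shares there were 5.63% with the dsRBD deletion (18 of 320 reads, 3.37% to 8.74%), 6.60% with AA (7 of 106, 2.70% to 13.1%) and 5.20% with WT (9 of 173, 2.41% to 9.65%). The intervals are exact binomial ones and cover counting error only.

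The log2 ratio of miR-451a to miR-144-3p changed by 0.10 ± 0.44 with the dsRBD deletion against WT in HCT116 (SE; 95% interval -0.82 to 1.02; adjusted p = 0.863, edgeR interaction test with the library as a block over 230 pairs). With AA it changed by -0.01 ± 0.28 (SE; 95% interval -0.60 to 0.59; adjusted p = 0.994, edgeR). The 230 pairs were this one and the 5p and 3p arms of all hairpins with enough reads; 62.6% of them changed ratio with the dsRBD deletion and 12.6% with AA. In HEK293T the pair missed the minimum of 10 reads per name. With a minimum of 5 reads the ratio changed by -0.05 ± 0.37 with the dsRBD deletion (SE; 95% interval -0.91 to 0.80; adjusted p = 0.906, edgeR) and by -0.33 ± 0.80 with AA (SE; 95% interval -2.17 to 1.498; adjusted p = 0.870, edgeR). Two-sided exact permutation tests of the log2 ratio gave p = 1 for 3 of the 4 comparisons and p = 0.667 for the dsRBD deletion in HEK293T; with 2 libraries a group such a test cannot go below 0.333. The intervals still hold changes of up to 1.02 on the log2 scale for the dsRBD deletion in HCT116, so equal behaviour of both miRNAs is not shown.

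**Figure D3:**
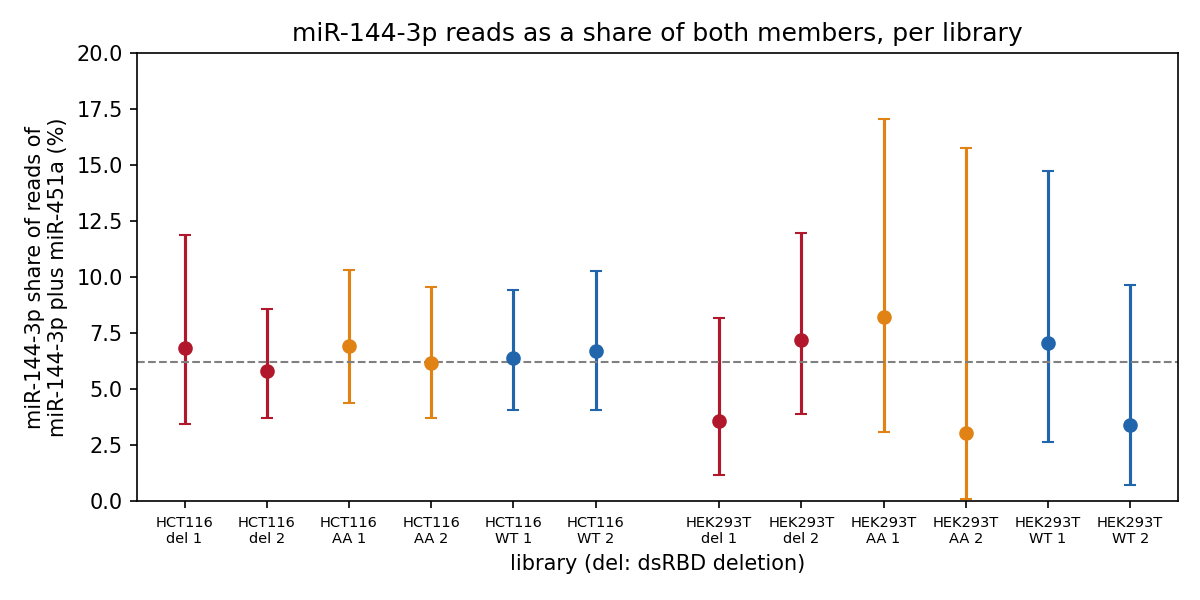
Reads of miR-144-3p as a percentage of the reads of miR-144-3p and miR-451a together in each of the 12 libraries, with exact binomial 95% intervals; the dashed line is the share over all libraries, 6.22% (150 of 2410 reads). The HCT116 libraries lie between 5.79% and 6.94%, the HEK293T libraries between 3.03% and 8.22%, and every interval includes the dashed line.

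miR-101-3p, which shares bases 2 to 7 with miR-144-3p and is known to repress EZH2, comes from hairpins outside the cluster. On the TMM scale it fell with the dsRBD deletion, where miR-144-3p was higher. That rise of miR-144-3p rested on the settings in HCT116 and was not tested in HEK293T. Relative to the spike-ins both were below WT in HCT116, at 6.94% of the WT mean for miR-101-3p and 62.5% for miR-144-3p. miR-101-3p averaged 848 ± 158 CPM with the dsRBD deletion, 3591 ± 137 with AA and 3539 ± 355 with WT in HCT116 (TMM-scaled, SD, n = 2 each). Its log2 fold change with the dsRBD deletion against WT was -2.06 ± 0.15 (SE; adjusted p = 8.2e-07, edgeR), and 34.1% of all tested names fell. In HEK293T it averaged 1327 ± 69.2 CPM with the dsRBD deletion, 14513 ± 1381 with AA and 14047 ± 3425 with WT, and the dsRBD deletion lowered it by 3.40 ± 0.21 on the log2 scale (SE; adjusted p = 1.4e-07, edgeR), where 39.6% fell. Within HCT116 miR-144-3p stayed far below it, so among the reads with this hexamer at bases 2 to 7 those of miR-101-3p outnumbered those of miR-144-3p by 2370 to 34 with the dsRBD deletion, 23190 to 40 with AA and 25652 to 42 with WT.

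Relative to the spike-ins, miR-451a gave another picture in HCT116. It had 11.6 and 17.9 reads per 1000 spike-in reads with the dsRBD deletion, 19.6 and 15.9 with AA, and 20.6 and 23.9 with WT. Both the dsRBD deletion and the AA libraries lay below WT on this scale and overlapped each other; 84.8% of all tested names lay wholly below WT with the dsRBD deletion and 64.2% with AA. The dsRBD deletion changed it by -0.59 ± 0.26 on the log2 scale against WT (SE; adjusted p = 0.0323, edgeR with spike-in scaling), while the median of all tested names was -1.78. On that scale 75.2% of names fell and 0.881% rose with the dsRBD deletion, where TMM scaling gave 34.1% and 28.1%. AA gave -0.49 ± 0.26 (SE; adjusted p = 0.115, edgeR with spike-in scaling), with 34.0% of names lower and 0.252% higher.

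In HEK293T miR-451a was higher with the dsRBD deletion on both scales. It had 3.68 and 3.73 reads per 1000 spike-in reads with the dsRBD deletion, 1.36 and 0.983 with AA, and 2.34 and 1.94 with WT, and no groups overlapped. On this scale 16.5% of all tested names had the dsRBD deletion libraries wholly above WT, 73.2% had AA wholly below WT, and 29.7% had AA wholly below the dsRBD deletion. The log2 fold change of the dsRBD deletion over WT was 0.77 (adjusted p = 0.0300, edgeR with spike-in scaling), in a comparison where 61.7% of names fell and 9.58% rose. AA gave -0.60 against WT (adjusted p = 0.161, edgeR with spike-in scaling), where 30.4% fell and 1.28% rose. Two-sided exact permutation tests of these 4 differences in reads per spike-in all gave p = 0.333, the smallest that 2 libraries against 2 allow. Neither the amount of spike-in RNA nor the step at which it was added is stated, so their part in these differences was not tested.

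On the spike-in scale miR-144-3p had 0.849 and 1.10 reads per 1000 spike-in reads with the dsRBD deletion, 1.46 and 1.04 with AA, and 1.40 and 1.72 with WT in HCT116. The dsRBD deletion libraries lay below both WT libraries, as for 84.8% of all tested names. The fitted change of -0.63 ± 0.47 did not pass the test (SE; adjusted p = 0.207, edgeR with spike-in scaling). Relative to spike-ins, the mean level with the dsRBD deletion was 66.3% of that with WT for miR-451a, 62.5% for miR-144-3p and 6.94% for miR-101-3p in HCT116. In HEK293T it was 173% for miR-451a and 3.54% for miR-101-3p. miR-144-3p had 0.137 and 0.289 reads per 1000 spike-in reads with the dsRBD deletion, 0.122 and 0.0307 with AA, and 0.178 and 0.0683 with WT in HEK293T, and each of these groups overlapped WT.

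**Figure D4:**
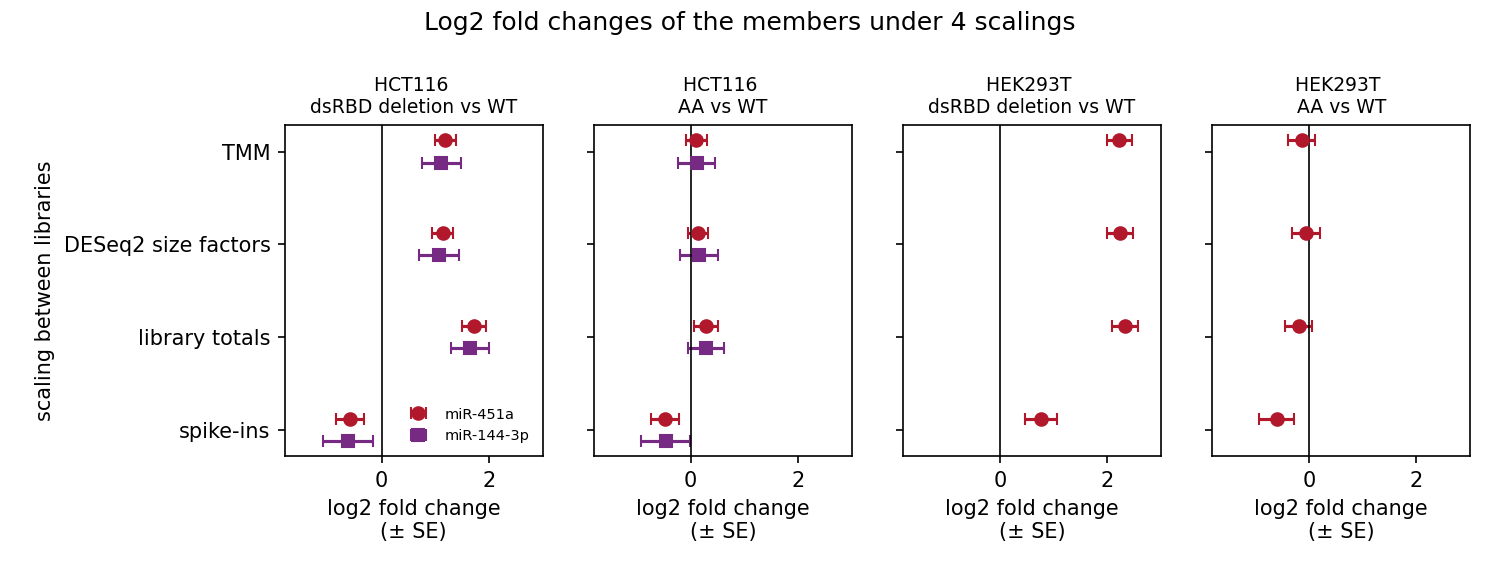
Log2 fold changes over WT (± SE derived from the F statistic of the edgeR test) of miR-451a (circles) and miR-144-3p (squares, HCT116 only) under 4 ways of scaling the libraries, for the dsRBD deletion and AA in each line. In HCT116 the change with the dsRBD deletion is positive under 3 scalings and negative with spike-ins (-0.59 and -0.63); in HEK293T miR-451a stays positive at 0.77 with spike-ins.

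The lines differed in both the level of miR-451a and its change with the dsRBD deletion. The TMM-scaled CPM given here use factors set within each line, whereas the fold changes between lines come from joint fits of all 12 libraries. With WT DICER, HEK293T had less miR-451a than HCT116, 28.0 and 24.8 against 85.1 and 79.5 TMM-scaled CPM. The log2 fold change of HEK293T over HCT116 was -1.70 ± 0.22 (SE; adjusted p = 3.5e-07, edgeR; 73.2% of 844 names called, 41.2% lower). miR-144-3p was also lower in HEK293T, at 2.13 and 0.877 against 5.79 and 5.72 TMM-scaled CPM (log2 fold change -2.01 ± 0.55, SE). It had only 6 and 3 reads in the HEK293T WT libraries. Both were under the 3.52 CPM limit of that fit, which miR-144-3p passed through other groups, so no test of this difference is given. Spike-in scaling gave -3.35 for miR-451a and -3.63 for miR-144-3p, while the median of all tested names moved to -2.02 there, against -0.39 with TMM. The effect of the dsRBD deletion on miR-451a was larger in HEK293T than in HCT116 by 1.36 ± 0.30 on the log2 scale (SE; 95% interval 0.73 to 1.98; adjusted p = 0.00103, edgeR interaction). In that test 34.8% of names differed, 22.4% upward, and the median difference of all tested names was 0.34. Scaling to library totals gave 0.62 and ended the call (adjusted p = 0.156). For miR-144-3p the difference was 1.499 ± 0.77 (SE). It rests on the same HEK293T WT libraries under the limit, so no test of it is given either. The AA effects differed between the lines by -0.12 ± 0.32 for miR-451a (SE; 95% interval -0.78 to 0.54; adjusted p = 0.915, edgeR interaction; 3.91% of names called).

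Other miRNAs with unusual routes of maturation mostly fell, or did not pass the test, where miR-451a rose on the TMM scale. The changes below are on that scale, and relative to the spike-ins miR-451a itself fell in HCT116 (log2 fold change -0.59). DROSHA-independent miRNAs, which skip the first cut but still need DICER, were represented by miR-484 and miR-320a to miR-320d. All 5 fell with the dsRBD deletion in HCT116, where 34.1% of all tested names did. Their median log2 fold change was -1.29, against -0.01 over all tested names. All 5 also fell in HEK293T, where 39.6% did (median -1.21, against -0.07). The miR-320 names belong to the same family, and the treatment of multiply mapped reads is not given, so they may not count as separate names. miR-484, which comes from a capped hairpin made by RNA polymerase II, changed by -5.36 ± 0.20 in HCT116 and -4.48 ± 0.24 in HEK293T (SE; adjusted p = 4.6e-09 and 5.6e-08, edgeR). With AA, where miR-451a did not pass the test, miR-484 changed by -4.07 ± 0.17 in HCT116 and -6.19 ± 0.26 in HEK293T (SE; adjusted p = 1.6e-07 and 1.1e-07, edgeR). It alone of the 5 fell with AA in HCT116, where 6.16% of all tested names did, and all 5 fell in HEK293T, where 15.2% did (median -1.14, against -0.11 over all tested names).

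Mirtrons, whose hairpins are released by splicing and then cut by DICER, were mixed. With the dsRBD deletion 2 of 4 tested names fell in HCT116 (34.1% of all tested names fell), miR-1226-3p with a log2 fold change of -6.44 ± 0.70 and miR-1224-5p with -2.58 ± 0.39 (SE). miR-1226-3p had 1 read in all with the dsRBD deletion there, against 268 with WT, so the size of its fall is poorly known. In HEK293T 1 of 3 tested names changed, against 75.6% of all tested names: miR-877-3p, which rose by 1.52 ± 0.27 (SE; adjusted p = 3.8e-04, edgeR). With AA 2 of 4 fell in HCT116, miR-1226-3p and miR-1224-5p, and 1 of 3 in HEK293T, miR-877-5p; over all tested names 6.16% and 15.2% fell. Whether the change of miR-451a differed from that of any of these names was not tested directly.

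Because the cluster is best known from red cells, miRNAs that mark erythroid and other tissues were read in the same libraries. None of the tested names of a 15-name list for erythroid cells, other blood cells, endothelium and platelets, liver and serum, and muscle rose with the dsRBD deletion or with AA in either line, with 8 tested names in HCT116 and 6 in HEK293T (edgeR). At an unadjusted p under 0.05 there was 1, miR-122-5p with the dsRBD deletion in HCT116, and DESeq2 called 0. With the dsRBD deletion 3 fell in HCT116 (miR-142-3p, miR-126-5p and miR-126-3p). In HEK293T 5 were called lower, the same 3 with miR-486-5p and miR-150-5p. The call of miR-486-5p lay at the threshold (adjusted p = 0.0499982, edgeR). miR-150-5p was tested only because its WT libraries, at 6.45 and 7.04 CPM, passed the limit of 4.73 CPM, so its call carries no weight. DESeq2 called 3 lower in each line. Over all tested names 34.1% fell and 28.1% rose with the dsRBD deletion in HCT116, and 39.6% fell and 35.9% rose in HEK293T. With AA 7.42% of all tested names in HCT116 were called in either direction and 6.16% lower. In HEK293T these shares were 21.4% and 15.2%, so rises with AA were rare among all names too. The erythroid names miR-486-5p and miR-486-3p together had 27.9 to 69.5 CPM with the dsRBD deletion, 68.7 to 78.3 with AA and 20.5 to 78.02 with WT in HCT116. In HEK293T they had 3730 to 3739 CPM with the dsRBD deletion, 3550 to 17539 with AA and 7445 to 7537 with WT. The names of other blood cells summed to 150 to 228 CPM with the dsRBD deletion, 486 to 500 with AA and 422 to 453 with WT in HCT116, and to 10.4 to 12.2, 14.5 to 14.6 and 22.6 to 22.8 CPM in the same groups of HEK293T. The miR-126 arms, of endothelium and platelets, summed to 450 to 471 CPM with the dsRBD deletion, 1658 to 1729 with AA and 1528 to 1595 with WT in HCT116, and to 257, 1024 to 1133 and 1000 to 1196 CPM in HEK293T.

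miR-122-5p, the main miRNA of liver and also found in serum, had a log2 fold change of 1.38 ± 0.58 with the dsRBD deletion in HCT116, which did not pass the test (SE; adjusted p = 0.0572, edgeR). The myeloid miR-223-3p had 1.19 ± 0.67 there (SE), on 5 and 7 reads with the dsRBD deletion and 4 and 10 with WT. It was among the tested names only through its dsRBD deletion libraries, at 6.06 and 5.17 CPM against a limit of 2.98. For this reason no test of it is given. In CPM miR-122-5p had 7.39 to 16.97 with the dsRBD deletion, 3.10 to 5.70 with AA and 1.97 to 4.001 with WT. The liver names in HEK293T had 6, 9 and 2 reads in all with the dsRBD deletion, AA and WT, and the muscle names 7, 10 and 11 reads in HCT116 and 9, 11 and 36 in HEK293T. At 0 in both libraries of a group were miR-1-3p in HCT116 with the dsRBD deletion, miR-223-5p in HCT116 with AA and WT, miR-150-3p in HEK293T with the dsRBD deletion, and miR-122-3p in HEK293T with AA and WT. The part of RNA from other cells or serum in the reads of miR-451a and miR-144 was not tested.

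The names whose levels followed miR-451a most closely over the 6 libraries of a line were taken among those averaging at least 100 CPM, by Pearson's r of log2 TMM-scaled CPM. In HCT116, among 263 names, they were miR-4485-5p (r = 0.983), miR-548b-3p (0.981), miR-362-3p (0.977), miR-20a-3p (0.972) and miR-450b-5p (0.969). In HEK293T, among 247 names, they were miR-30d-3p (r = 0.999), miR-551b-3p (0.997), miR-15b-5p (0.997), miR-362-3p (0.997) and miR-500b-5p (0.997). miR-362-3p was on both lists, with log2 fold changes of 0.64 with the dsRBD deletion and 0.04 with AA in HCT116, and 2.74 and -0.26 in HEK293T. miR-144-3p, below the level limit, had r = 0.986 with miR-451a in HCT116. The 6 points share their libraries and fall into the dsRBD deletion and the rest, and many names differ between these.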

How the data were processed

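Per the labels, total RNA was isolated with TRIzol, made into AQ-seq libraries from 100 µg and sequenced on an Illumina NovaSeq. The authors deposited a table of raw counts per library, with 1 read count for each miRNA name and each of 30 spike-in RNAs. The submitters' processing notes name cutadapt, BWA, bedtools, hg38 and mm10; versions, roles, the miRNA annotation and the treatment of multiply mapped reads are not given there or in the labels.

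Spike-in rows entered neither library sizes nor tests. Counts were fitted per line over all 6 libraries (all 12 for line comparisons) with edgeR 4.0.16 (R 4.3.3), filterByExpr with a minimum of 10, TMM factors and the quasi-likelihood test; p-values were Benjamini-Hochberg adjusted over all tested names at a threshold of 0.05. The code was tested on simulated data. Alternatives were DESeq2 1.42.0 (test and size factors), library totals, spike-in size factors, no filter, a replicate block, another read minimum for ratios and each library left out. Each SE is the absolute log2 fold change divided by the square root of the F statistic of the edgeR test. Intervals use a 95% level, those of log2 fold changes with these SEs and a t quantile. A count of 0 allows 3 reads. Replicate numbers did not pair libraries. Hairpins were folded with ViennaRNA 2.7.2. Named miRNAs are the members, their cluster and seed neighbours, the 5 names most like miR-451a per line, and lists for maturation routes and tissues. The members and lists were chosen with earlier results of these data known.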

Additional observations from a re-analysis of the deposited data

Results flagged for a closer look

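The effect of the dsRBD deletion on miR-451a differed between the cell lines. It was larger in HEK293T than in HCT116 by 1.36 on the log2 scale in an interaction test of the difference itself (adjusted p = 0.00103, edgeR). In that test 34.8% of all tested names differed, 22.4% upward, and the median difference of all tested names was 0.34. Both HEK293T and both HCT116 dsRBD deletion libraries lay above their WT libraries on TMM-scaled CPM, as for 42.5% and 40.3% of all tested names. Scaled to library totals the difference for miR-451a was 0.62 and did not pass.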

How the results depend on the processing

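The rise of miR-451a with the dsRBD deletion kept its direction and call in HEK293T under all 6 alternative settings (0.77 to 2.34 on the log2 scale) and without each library (2.00 to 2.29), and in HCT116 without each library (0.82 to 1.26) and under 5 of 6 settings. Spike-in scaling turned these HCT116 values round: -0.59 for miR-451a and -0.63 for miR-144-3p with the dsRBD deletion against WT, -0.49 and -0.46 with AA against WT, and 0.10 and 0.17 with AA against the dsRBD deletion. It shifts the median of all names by -1.76 in HCT116 and -1.45 in HEK293T with the dsRBD deletion, and by -0.59 and -0.47 with AA. It also raised the names called with AA in HCT116 to 272, against 59. Library totals changed the HCT116 split with the dsRBD deletion to 39.9% higher and 24.9% lower, and gave 78 names, against 33, whose AA effect differed between lines, -0.14 for miR-144-3p in that test, and 0.62 for miR-451a in the test of the dsRBD deletion effect between lines.

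miR-144-3p in HCT116 lost its call with the dsRBD deletion in DESeq2 (1.06), without the filter (0.90) and in 5 of 6 fits with a library left out (0.88 to 1.07). With AA against the dsRBD deletion it lost its call with DESeq2 size factors (-0.92), in DESeq2 (-0.91), without the filter (-0.77) and in all 6 fits (-1.12 to -0.71). For values near 0, leaving out a library gave, in HCT116 with AA, -0.0277 to 0.225 for miR-451a, -0.12 to 0.32 for miR-144-3p and -0.0905 to 0.0892 for their ratio. It gave -0.0635 to 0.191 for the ratio with the dsRBD deletion and -0.97 to 0.88 for the difference between lines in the AA effect on miR-144-3p. The names called with AA ranged from 10 to 85 in HCT116, from 54 to 136 in HEK293T, and from 26 to 50 for the difference between lines. The causes were not tested.

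The replicate numbers did not pair libraries: deviations of same-numbered libraries correlated at -0.10 to 0.15 in HCT116 and at -0.07 to 0.09 in HEK293T. With a replicate block the dsRBD deletion raised miR-451a by 1.18 in HCT116 and 2.23 in HEK293T, and no call of a member changed. Without the filter no difference in miR-144-5p passed. Depth limits what can be said of both miR-144 arms.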

Other observations

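miR-486-5p, the other miRNA best known from red cells, stood apart in 1 HEK293T library. It had 3536 and 4058 reads in HEK293T cells with the dsRBD deletion, 9428 and 24698 with AA, and 20202 and 25380 with WT. The AA libraries thus held 3493 and 17703 TMM-scaled CPM, while miR-451a in the same libraries held 24.8 and 22.9.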
